A study of Mus musculus with 4 samples.

Results

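The pore-forming alpha-1 subunits of voltage-gated calcium channels were examined in sorted *Hmx3*-lineage cells with and without a functional *Dnmt1* gene, which encodes the maintenance DNA methyltransferase. The members were chosen by gene name, as the 8 alpha-1 genes *Cacna1a*, *Cacna1b*, *Cacna1c*, *Cacna1d*, *Cacna1e*, *Cacna1g*, *Cacna1h* and *Cacna1i*, out of 55573 genes in the count data. All 8 passed the filter on low counts. None of the 8 was called different between genotypes, against 7.90% of the 16832 genes tested. The median of their absolute log2 fold changes was 0.07, against 0.31 over the genes tested. In counts scaled to library size, the members ranked above 52.2% to 96.3% of these genes, so the medians are not matched for level.

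The study asked if *Dnmt1* acts upstream of the transcription factor gene *Lhx1* in immature interneurons from the preoptic area of the mouse embryo. As part of this it reanalysed RNA sequencing data that had been published earlier. RNA was sequenced from tdTomato-positive cells collected by fluorescence-activated cell sorting at E16 from dissociated tissue, given as basal telencephalon in the labels and as preoptic area in the study's methods, with the day of insemination counted as E1. All embryos carried the *Hmx3*-Cre driver, which is active in part of the preoptic domain, and a Cre-dependent tdTomato reporter. The KO embryos carried in addition the *Dnmt1* loxP2 allele, in which Cre removes exons 4 and 5 and leaves an out-of-frame transcript, and the WT embryos had intact *Dnmt1*. There were 2 libraries from each genotype, prepared from cells of 12 WT and 6 KO embryos. The sample labels call the libraries biological replicates and the study's methods describe technical duplicates of pooled material, so the p-values below measure only the spread between these libraries, which may be technical. Only cells with Cre activity lose *Dnmt1*, and the sort does not separate cell types within the tdTomato-positive population.

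Voltage-gated calcium channels open when the membrane depolarizes and let calcium into the cell. The alpha-1 subunit forms the pore and the voltage sensor and gives each channel its type, while beta, alpha-2/delta and gamma proteins are accessory subunits that affect its trafficking and gating. P/Q-, N- and R-type channels act mainly at presynaptic terminals, L-type channels couple depolarization to gene transcription and dendritic calcium signals, and T-type channels open near the resting potential and support burst firing. In migrating interneurons, calcium entry through such channels takes part in nucleokinesis and in the stop signal that ends migration.

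The promoter sequences of members are shown because *Dnmt1* maintains methylation at CpG dinucleotides, and members differ widely in CpG content in front of their start sites. RefSeq promoter windows on GRCm38.p6 were found for 5 of the 8 members, and *Cacna1a*, *Cacna1g* and *Cacna1h* had no entry. The 5 genes had 8 windows in all, each cut to the 250 bases before the start site, with between 2 and 50 CpG per window against a median of 6 over all 32851 windows of the same length. The 4 windows printed here run 5′ to 3′ on the minus strand, the strand of the gene, and CpG dinucleotides are in capitals. They are the start of *Cacna1b*, chr2:24763153-24763402, with 29 CpG, a start inside the annotated span of *Cacna1e*, chr1:154725921-154726170, with 6 CpG, and a pair of alternative starts of *Cacna1d*, chr14:30491157-30491406 with 2 CpG and chr14:30353487-30353736 with 50 CpG.
Cacna1b: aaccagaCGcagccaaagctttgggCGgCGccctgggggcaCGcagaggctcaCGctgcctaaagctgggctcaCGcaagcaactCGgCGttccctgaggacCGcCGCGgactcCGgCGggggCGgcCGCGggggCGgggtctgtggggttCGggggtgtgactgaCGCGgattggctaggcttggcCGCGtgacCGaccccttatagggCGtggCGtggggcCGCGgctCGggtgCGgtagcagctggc
Cacna1e, internal start: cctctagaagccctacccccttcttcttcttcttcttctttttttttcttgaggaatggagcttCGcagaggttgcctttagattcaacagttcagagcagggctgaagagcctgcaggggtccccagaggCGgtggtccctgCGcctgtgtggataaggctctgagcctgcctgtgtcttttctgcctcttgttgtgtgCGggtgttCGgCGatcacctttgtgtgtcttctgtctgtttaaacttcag
Cacna1d, upstream start: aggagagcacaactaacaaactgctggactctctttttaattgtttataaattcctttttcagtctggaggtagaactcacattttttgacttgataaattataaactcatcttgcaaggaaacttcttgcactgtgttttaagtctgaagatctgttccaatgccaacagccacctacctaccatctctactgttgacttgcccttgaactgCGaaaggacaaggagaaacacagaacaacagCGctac
Cacna1d, internal start: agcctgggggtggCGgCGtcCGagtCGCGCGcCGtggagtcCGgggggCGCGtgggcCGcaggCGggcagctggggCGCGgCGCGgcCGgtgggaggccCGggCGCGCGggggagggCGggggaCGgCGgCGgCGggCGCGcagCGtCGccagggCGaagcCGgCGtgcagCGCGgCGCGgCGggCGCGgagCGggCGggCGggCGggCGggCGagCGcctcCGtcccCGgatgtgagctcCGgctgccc
The contrast between the windows of *Cacna1d* is the widest among members, at 39.6% and 86.4% GC. *Cacna1c* had a similar spread over its 3 windows, with 2, 48 and 5 CpG, and the window of *Cacna1i* had 16. The letters GGGCGG of the GC box occurred on either strand in 3 of the 8 windows, against 32.7% of all windows, and TATAAA occurred in 1, the upstream window of *Cacna1d*, against 12.4%. No window held the cAMP response element TGACGTCA, which was found in 1.55% of all windows. The GC box letters themselves hold a CpG, so the motif and the CpG count overlap. Gene-level counts do not show which of these starts was used in these cells, and DNA methylation was not analysed here.

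The libraries held between 8075102 and 9995968 counts, and 3 counts, taken as the floor of detection, corresponded to 0.294 to 0.372 CPM, read counts scaled to the size of each library. *Dnmt1* was at 385 and 446 CPM in WT and at 283 and 281 CPM in KO, and the log2 fold change was -0.56 (SE 0.14, edgeR adjusted p 0.0511). It did not pass the threshold, and the gene-level count also covers exons outside the deletion. Over all genes, the WT libraries differed more from each other than the KO libraries did (biological coefficient of variation 0.234 and 0.103), and mitochondrial ribosomal RNA took 8.66% of the counts in WT replicate 1 against 1.51% to 2.32% in the others. Replicate libraries of each genotype differed by more than sampling noise. In bulk samples of this kind, fewer cells of a type and less RNA per cell cannot be told apart.

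*Cacna1a* encodes the pore of P/Q-type channels, which trigger transmitter release at many central synapses. It lies at chr8:84388440-84640246 on the plus strand (GRCm38). WT replicates had 758 and 1022 counts and KO replicates 936 and 1105, or 94.1 and 100.1 CPM in WT and 111 and 122 CPM in KO. Both KO libraries stood above both WT libraries, as they did for 28.3% of all genes tested. *Cacna1a* was the only member whose genotypes did not overlap, against 53.5% of all genes in either direction. The means were 97.1 ± 4.27 CPM in WT and 116 ± 7.37 CPM in KO (SD, n = 2 each), a log2 fold change of 0.26 with a 95% interval from -0.07 to 0.59. The edgeR quasi-likelihood test with Benjamini-Hochberg adjustment gave an adjusted p of 0.321, so the difference did not pass, and the interval reaches from a 0.954-fold to a 1.51-fold level in KO. An antisense gene, *Gm16183*, shares 3.81% of its exonic bases.

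*Cacna1b* encodes the N-type pore, another presynaptic channel, and lies at chr2:24603887-24763152 on the minus strand. It was at 205 and 201 CPM in WT and 199 and 211 CPM in KO, from 1653 to 2053 counts per library. The KO values bracketed the WT values. The log2 fold change was 0.01 with a 95% interval from -0.29 to 0.32 (edgeR adjusted p 0.965), the narrowest interval among members.

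*Cacna1e*, the R-type pore, at chr1:154390731-154884501 on the minus strand, was at 224 and 202 CPM in WT and 201 and 220.2 CPM in KO. The genotypes overlapped, with WT replicate 1 highest and KO replicate 1 lowest. Its log2 fold change was -0.01 with a 95% interval from -0.34 to 0.31 (edgeR adjusted p 0.968).

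The L-type genes were in the lower part of the members' order per length of transcript. *Cacna1c*, the main L-type pore of brain and heart, at chr6:118587240-119196418 on the minus strand, was at 114 and 129.6 CPM in WT and 129 and 131 CPM in KO. WT replicate 1 was lowest and the other 3 libraries lay close together. The log2 fold change was 0.10 with a 95% interval from -0.24 to 0.43 (edgeR adjusted p 0.741). *Cacna1d*, an L-type pore that opens at less depolarized potentials and drives pacemaking, at chr14:30039939-30491455 on the minus strand, was at 55.2 and 45.0 CPM in WT and 49.5 and 53.9 CPM in KO. The WT values enclosed the KO values. Its log2 fold change was 0.05 with a 95% interval from -0.34 to 0.43 (edgeR adjusted p 0.904), and 4.67% of its exonic bases overlap *Chdh* on the opposite strand. The remaining L-type genes, *Cacna1f* of the retina and *Cacna1s* of skeletal muscle, are not members. *Cacna1f* had 5 and 10 counts in the WT libraries and 2 and 12 in the KO libraries. *Cacna1s* had 7 and 0 in the WT libraries and 0 and 2 in the KO libraries, and neither gene passed the filter of the edgeR fit.

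The T-type genes spanned the whole range of levels. *Cacna1h*, at chr17:25374285-25433783 on the minus strand, had between 1798 and 2785 counts per library, or 223 and 273 CPM in WT and 221 and 258 CPM in KO. In each genotype replicate 2 was higher than replicate 1, and the genotypes overlapped. The log2 fold change was -0.05 with a 95% interval from -0.42 to 0.32 (edgeR adjusted p 0.891), and 1.62% of its exonic bases overlap *Tpsg1* on the opposite strand.

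*Cacna1g*, at chr11:94408391-94474198 on the minus strand, showed the same order of replicates, at 118 and 136 CPM in WT and 125 and 151 CPM in KO. Its log2 fold change was 0.11 with a 95% interval from -0.25 to 0.48 (edgeR adjusted p 0.718). *Cacna1i*, at chr15:80287238-80398279 on the plus strand, was the least abundant member, with 159 to 222 counts per library. It was at 21.5 and 21.8 CPM in WT and 21.8 and 17.5 CPM in KO, so that KO replicate 2 stood below the other 3 libraries. Its log2 fold change was -0.14 with a 95% interval from -0.62 to 0.34 (edgeR adjusted p 0.736), the widest interval among members.

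**Figure D1:**
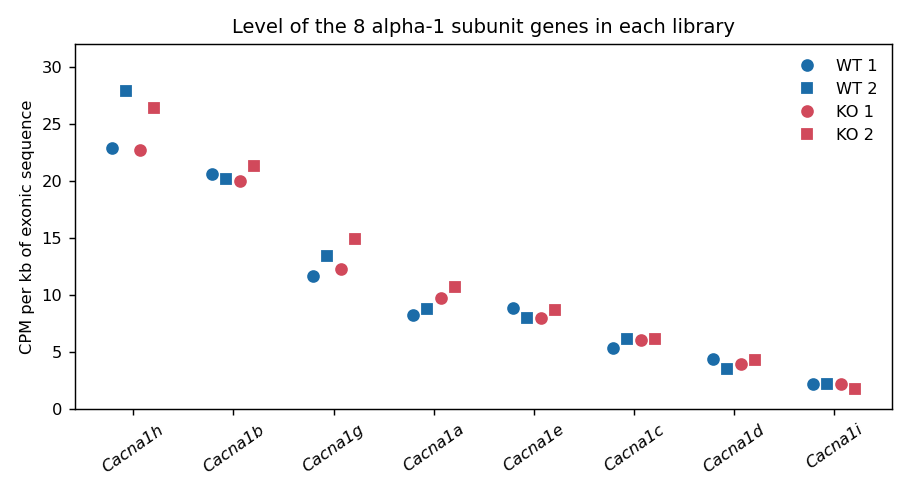
Level of each alpha-1 gene in each library, in CPM per kb of exonic sequence; circles are replicate 1 and squares replicate 2 (WT blue, KO red). The genes are ordered by their mean over the 4 libraries, from *Cacna1h* at 25.0 to *Cacna1i* at 2.09, and WT and KO points lie close together within each gene.

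Levels between genes were compared in CPM per kb of exonic sequence, as means over the 4 libraries. *Cacna1h* was highest at 25.0 (range 22.7 to 27.9), followed by *Cacna1b* at 20.5 (20.0 to 21.3) and *Cacna1g* at 13.1 (11.7 to 14.9). *Cacna1a* at 9.35 (8.24 to 10.7) and *Cacna1e* at 8.40 (7.98 to 8.87) came next. Then followed *Cacna1c* at 5.95 (5.38 to 6.18), *Cacna1d* at 4.03 (3.56 to 4.38) and *Cacna1i* at 2.09 (1.78 to 2.21). The plot of levels per kb shows that *Cacna1a* and *Cacna1e* were the only neighbours in this order whose ranges over the 4 libraries overlapped, and *Cacna1a* was the higher of the pair in 3 of the 4. Dividing by the longest annotated transcript instead put *Cacna1e* at 14.2 above *Cacna1a* at 13.5 and kept the rest of the order. In CPM, the members ranked above between 52.2% (*Cacna1i*) and 96.3% (*Cacna1h*) of the genes tested.

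**Figure D2:**
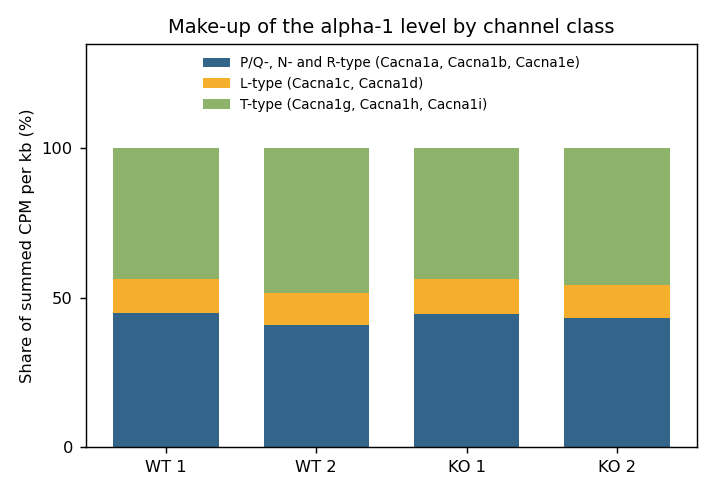
Share of each channel class in the summed alpha-1 level of each library, in percent of the summed CPM per kb. P/Q-, N- and R-type genes took 41.0% to 44.8%, T-type genes 43.6% to 48.3% and L-type genes 10.7% to 11.8%, and the bars of WT and KO overlap in all 3 classes.

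By class, the genes of P/Q-, N- and R-type channels made up 44.8% and 41.0% of the summed alpha-1 level in WT and 44.4% and 43.2% in KO. The T-type genes made up 43.6% and 48.3% in WT and 43.8% and 45.7% in KO. The L-type genes made up 11.6% and 10.7% in WT and 11.8% and 11.1% in KO. The genotypes overlapped in each class, as the bars of class shares show, and the mean shares of KO and WT differed by less than the SD of the WT pair (2.71, 3.32 and 0.614 percentage points). The shares are given as values without a test, and an exact permutation test of 2 libraries against 2 cannot give a p below 0.333. Within the sum, *Cacna1a* took 9.79% and 9.71% in WT and 11.5% and 11.3% in KO, without overlap.

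Across the members, 0 of 8 were called in either direction by edgeR (adjusted p under 0.05), against 7.90% of all genes tested (7.33% higher and 0.570% lower in KO). At an unadjusted p under 0.05, 0 of 8 passed against 22.7% of all genes, and DESeq2 and limma-voom also called 0 of 8, against 7.09% and 7.81% of the genes they tested. The median log2 fold change was 0.03, against -0.03 over all genes, with 5 members above 0 and 3 below, from -0.14 (*Cacna1i*) to 0.26 (*Cacna1a*). The CPM of KO and WT did not overlap for 1 member of 8, *Cacna1a*, against 53.5% of all genes tested (28.3% with KO above WT). The 95% intervals of the members lay between -0.62 and 0.59, and values inside a gene's interval are not excluded by its test.

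**Figure D3:**
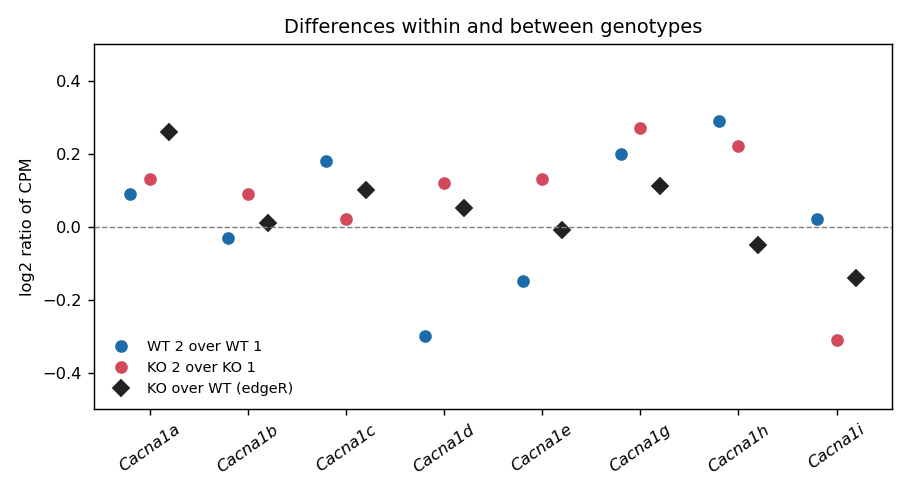
Log2 ratio of CPM between replicates of a genotype (WT 2 over WT 1 in blue, KO 2 over KO 1 in red) and the edgeR log2 fold change of KO over WT (black diamond) for each member. The diamond lies farther from 0 than both circles for *Cacna1a* (0.26 against 0.09 and 0.13) and for no other member.

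The spread between libraries of the same genotype sets the scale for these differences. Replicate 2 over replicate 1 gave log2 ratios from -0.30 (*Cacna1d*) to 0.29 (*Cacna1h*) in WT and from -0.31 (*Cacna1i*) to 0.27 (*Cacna1g*) in KO. For *Cacna1a* the ratios between replicates were 0.09 in WT and 0.13 in KO, against 0.26 between genotypes. For the other 7 members, the replicates of WT or of KO differed by more than the genotypes did, as the plot of these ratios shows. A ratio of single libraries varies more than a difference of genotype means, and the same comparison was not made over all genes.

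Gene length and base composition did not enter the choice of members. The members are long genes, spanning from 59.5 kb (*Cacna1h*) to 609 kb (*Cacna1c*), with a median of 206 kb against 19.1 kb over the genes tested. Their exonic sequence had a median of 10.8 kb against 4.02 kb. The GC content of the longest annotated transcript had a median of 55.5% against 49.0%, from 48.3% in *Cacna1e* to 60.0% in *Cacna1h*. When trends with exonic length and GC content were removed from each library, the log2 fold change of *Cacna1a* was 0.32 (edgeR adjusted p 0.144). In that fit 0 of 8 members were called, against 11.3% of all genes higher and 4.68% lower in KO.

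**Figure D4:**
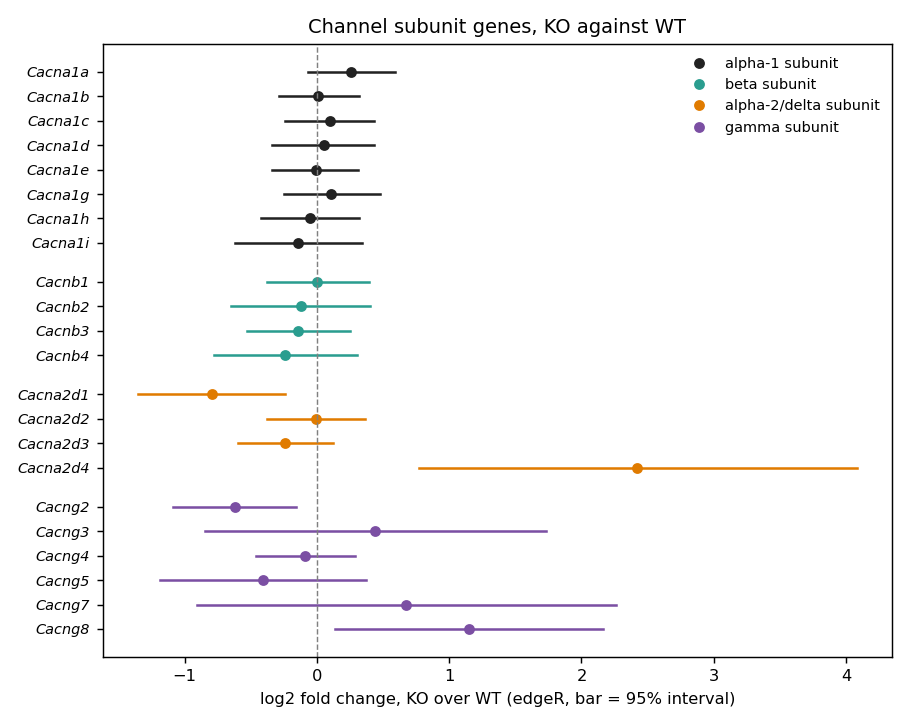
Log2 fold change of KO over WT from edgeR (point) with its 95% interval (bar) for the 8 alpha-1 genes and 14 tested genes of accessory subunits, colored by subunit; the dashed line is at 0. All 8 alpha-1 intervals span 0, while those of *Cacna2d1* and *Cacng2* lie below 0 and those of *Cacna2d4* and *Cacng8* above 0.

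Of 16 genes of accessory subunits, 14 were tested and 0 were called by edgeR (7.90% of all genes), with 4 at an unadjusted p under 0.05 (22.7% of all genes), a median log2 fold change of -0.11 and a range from -0.79 to 2.42. The plot of fold changes sets them beside the alpha-1 genes. *Cacna2d1*, which encodes an alpha-2/delta subunit that binds gabapentin, had 569 to 1179 counts per library, or 146 and 85.5 CPM in WT and 67.6 and 65.9 CPM in KO. Both KO libraries were below both WT libraries, and the WT pair differed widely. Its log2 fold change was -0.79 (SE 0.24, 95% interval -1.35 to -0.24, edgeR adjusted p 0.0948), so it was not called. It was called lower by DESeq2 (log2 fold change -0.81, adjusted p 0.0143) and by edgeR with no filter or with the length and GC correction (-0.45, adjusted p 0.0489), while scaling to neuron markers gave -0.35 without a call. The log2 fold change was -1.14 without WT replicate 2, where edgeR called it, and -0.37 without WT replicate 1, where it did not. *Cacna2d2* was at -0.01 and *Cacna2d3* at -0.24 on the log2 scale. *Cacna2d4*, the alpha-2/delta gene of the retina, was near the floor in WT, with 4 and 3 counts there against 24 and 13 in KO (log2 fold change 2.42, edgeR adjusted p 0.0892). It was called higher in 4 of 10 alternatives, with library size only, neuron scaling, no filter or the length and GC correction, and without WT replicate 1.

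The beta subunits bind the alpha-1 subunit directly and bring it to the membrane. *Cacnb3* was the most abundant of them in CPM, at 208 ± 27.6 in WT and 189 ± 30.0 in KO (SD, n = 2 each). The log2 fold changes were 0.00 for *Cacnb1*, -0.12 for *Cacnb2*, -0.14 for *Cacnb3* and -0.24 for *Cacnb4*, with a smallest edgeR adjusted p of 0.590. *Cacnb4* was at -0.54 and called lower without WT replicate 2 (edgeR adjusted p 0.0268), and at 0.11 without WT replicate 1. *Cacnb4* shares 1433 exonic bases with *A430018G15Rik* on the opposite strand. The gamma genes are best known as auxiliary subunits of AMPA receptors. *Cacng2* (stargazin) had 208 and 257 counts in the WT libraries against 127 and 163 in the KO libraries, without overlap (log2 fold change -0.62, 95% interval -1.09 to -0.16, edgeR adjusted p 0.112). It was called lower by edgeR with the length and GC correction (-0.66, adjusted p 0.0356), while scaling to neuron markers gave -0.19 without a call. When each library was left out, the log2 fold change of *Cacng2* ranged from -0.75 to -0.49. *Cacng8* had 19 and 17 counts in the WT libraries against 35 and 43 in the KO libraries (log2 fold change 1.15, edgeR adjusted p 0.169), and was called higher with neuron scaling and without WT replicate 1. *Cacng4* was the most abundant gamma gene, at 161 ± 8.36 CPM in WT and 151 ± 26.5 CPM in KO (SD, n = 2 each), with a log2 fold change of -0.09. *Cacng3*, *Cacng5* and *Cacng7* were at 0.44, -0.41 and 0.67, from 6 to 59 counts per library, and *Cacng7* moved between -0.01 (without WT replicate 2) and 1.81 (without WT replicate 1). *Cacng1* had 4 to 12 counts per library, and *Cacng6* had 0 in all 4 libraries, which allows at most 0.294 to 0.372 CPM, and neither passed the filter of the edgeR fit.

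Genes that act on the channels or on the calcium they admit were described in 6 lists. Of 39 listed genes 38 were tested, and 5 were called higher and 0 lower in KO (edgeR, against 7.33% and 0.570% of all genes), with 12 at an unadjusted p under 0.05 (22.7% of all genes). Of 4 calcium-activated potassium channels, 2 were higher. *Kcnn2*, which encodes an SK channel of the afterhyperpolarization, had 130 and 125 counts in the WT libraries against 431 and 480 in the KO libraries, with means of 14.2 ± 2.75 and 52.1 ± 1.15 CPM (SD, n = 2 each), a log2 fold change of 1.88 (SE 0.19) and an edgeR adjusted p of 0.000642. Every KO library was above every WT library, and *Kcnn2* was called in all 11 alternatives of processing. *Kcnn3*, another SK channel, had 285 and 261 counts in the WT libraries against 475 and 586 in the KO libraries (log2 fold change 0.99, edgeR adjusted p 0.0177). Without KO replicate 2 its edgeR adjusted p was 0.0676.

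Of 6 intracellular calcium release channels 1 was higher, *Itpr2*, an inositol trisphosphate receptor with high expression in astrocytes. Its WT libraries held 360 and 421 counts and its KO libraries 1286 and 1325, a 3.48-fold higher level (95% interval 2.74 to 4.41, edgeR adjusted p 0.000178). Among 16 calcium sensors and effectors 2 were higher. *Nfatc1*, a transcription factor activated by calcineurin, had 27 and 43 counts in the WT libraries against 95 and 106 in the KO libraries (log2 fold change 1.59, edgeR adjusted p 0.0153). *Camk2g*, a calmodulin-dependent kinase, had 1021 and 1484 counts in the WT libraries against 1636 and 1976 in the KO libraries (log2 fold change 0.60, edgeR adjusted p 0.0475), and was called in 2 of the 4 fits that left out a library. None of the other 3 lists had a gene called. The smallest edgeR adjusted p was 0.0506 for *Rem2* (log2 fold change -0.76) among the small G proteins that inhibit the channels. It was 0.364 for *Stac3* (0.62) among 3 STAC adaptors and 0.272 for *Erc2* (-0.27) among 6 active zone anchors. *Rem2* was called lower in 5 of 11 alternatives, while scaling to neuron markers gave -0.33 without a call. When each library was left out, its log2 fold change ranged from -0.94 to -0.59.

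**Figure D5:**
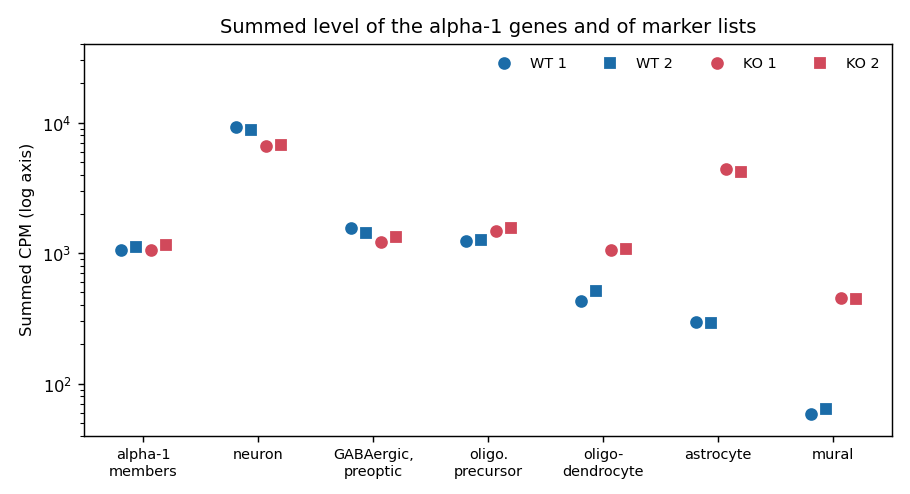
Summed CPM (log axis) of the 8 alpha-1 genes and of lists of cell type markers in each library; circles are replicate 1 and squares replicate 2 (WT blue, KO red). The alpha-1 sum lies between 1055 and 1165 in all 4 libraries, while the astrocyte sum is 291 to 298 in WT and 4199 to 4379.6 in KO.

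The labels name interneurons, and the neuron markers were at high levels in all libraries, so the cell type was checked beside the alpha-1 genes. The 8 alpha-1 genes summed to 1055 and 1109 CPM in WT and 1058 and 1165 CPM in KO. The 15 neuron markers summed to 9327 and 8721 CPM in WT and 6587 and 6737 CPM in KO, a ratio of 0.738, and 3 of them were called lower and none higher by edgeR. The 10 markers of GABAergic and preoptic neurons had a ratio of 0.854 with 0 called by edgeR and 2 at an unadjusted p under 0.05. All 12 astrocyte markers were called higher, and their sum rose from 291 to 298 CPM in WT to 4199 to 4379.6 CPM in KO, as the plot of summed levels shows. Mural markers (7 of 8 higher) summed to 59.1 and 64.6 CPM in WT and 445 to 450.0 CPM in KO, and oligodendrocyte markers (8 of 11 higher) to 429 and 512 in WT and 1051 to 1069.5 in KO. Of the markers tested in the other lists, 2 of 6 for glutamatergic neurons were called lower, 1 of 5 for oligodendrocyte precursors and 1 of 5 for microglia were called higher, and 0 of 5 for endothelial cells and 0 of 6 for cycling progenitors were called (3 and 2 at an unadjusted p under 0.05). Over all genes, 7.33% were called higher, 0.570% lower, and 22.7% had an unadjusted p under 0.05. Oligodendrocyte precursor markers summed to 1249.5 and 1260.0 CPM in WT and 1491 and 1550.2 CPM in KO. Those of glutamatergic neurons summed to 449 and 426 CPM in WT and 231 and 258 CPM in KO. *Gfap* and *Acta2* were at 0 counts in both WT libraries. The KO libraries held 149 and 198 counts of *Gfap* and 652 and 800 of *Acta2*. The part of these shifts in the values of the alpha-1 genes, and in the higher *Kcnn2*, *Kcnn3*, *Itpr2*, *Nfatc1* and *Camk2g*, was not tested.

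Relative to the neuron markers, the alpha-1 level read differently. The alpha-1 sum equalled 11.3% and 12.7% of the neuron marker sum in WT and 16.1% and 17.3% in KO (means 12.0 ± 0.992 and 16.7 ± 0.861, SD, n = 2 each), without overlap. When each library was scaled to its neuron marker sum, all 8 members had a log2 fold change above 0, with a median of 0.47, but the median over all genes was then 0.41. On that scale edgeR called 3 of 8 members higher, against 21.1% of all genes. They were *Cacna1a* (log2 fold change 0.70, adjusted p 0.0124), *Cacna1c* (0.53, adjusted p 0.0443) and *Cacna1g* (0.55, adjusted p 0.0479). This scaling moved the median of all genes by 0.43, and fold changes on it are relative to the neuron markers only.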

How the data were processed

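RNA sequencing was analysed from 2 WT and 2 KO libraries, grouped by the genotype in the sample labels. For each library the authors deposited unnormalized counts of reads by Ensembl gene identifier, and the submitters' processing notes name CASAVA 1.8.2, STAR 2.5.2a, featureCounts 1.5.0-p1 and the builds mm10 and GRCm38. The annotation release and the strand setting of the counting are not given in the sources used here, so reads of a gene and its antisense partner may not be separated. Of 55573 gene identifiers 55480 matched GENCODE M21, which gave symbols, positions (GRCm38) and the union of exons used for CPM per kb.

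The quasi-likelihood test of edgeR 4.0.16 (R 4.3.3) was fitted to all 4 libraries with genotype as the only term, TMM factors and the filterByExpr filter, and p-values were adjusted by Benjamini-Hochberg over 16832 genes, with an adjusted p under 0.05 called. Standard errors and 95% intervals come from the same fit, with 6.05 prior degrees of freedom, and CPM values use the TMM-scaled library sizes. The procedure was tested on simulated data before use. Alternatives were DESeq2 1.42.0, limma-voom (limma 3.58.1), 4 other scalings, 2 other filters, the replicate block, a length and GC correction, leaving out each library, and other thresholds. Fits with 3 libraries assume that the lone library varies like the other genotype.

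The members and gene lists were chosen with earlier results of these data known. Named were all members, *Cacna1f*, *Cacna1s*, all accessory subunit genes, called genes of the other calcium lists, and the gene with the smallest p of a calcium list without calls. Marker lists are given by counts and sums with *Gfap* and *Acta2*, named because they were at 0 in WT. No neighbours in expression pattern were sought, since that rule applied to called members only. Depth was between 8075102 and 9995968 counts per library, and detection floors cover counting error only.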

Additional observations from a re-analysis of the deposited data

How the results depend on the processing

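None of the 8 alpha-1 genes was called by edgeR, against 7.90% of all genes tested. That count stayed at 0 under every alternative run except scaling to the neuron markers. With neuron scaling 3 were called higher, against 21.1% of all genes. Setting that scaling aside, the log2 fold change of *Cacna1a* ranged from 0.25 to 0.37 with adjusted p from 0.0951 to 0.580 over 10 alternatives, and from 0.20 to 0.34 when each library was left out. With no other change than a threshold of 0.1 on the adjusted p, still 0 members were called, and the lowest adjusted p of *Cacna1a*, 0.0951, came with the block and the length and GC correction together. Of 120 member values under alternatives, 23 changed sign, all of them without a call.

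Members near 0 changed sign as follows. *Cacna1b* was at -0.0015 in DESeq2. *Cacna1e* was at 0.10 with library size only, 0.03 with upper quartile, 0.42 with neuron scaling, 0.02 with at least 10 counts in every library, and 0.04 with the length and GC correction, with or without the block. *Cacna1h* was at 0.05 with library size only, 0.38 with neuron scaling and 0.04 with the length and GC correction, with or without the block. *Cacna1i* was at 0.30 with neuron scaling. When each library was left out, the log2 fold changes ranged from -0.02 to 0.07 for *Cacna1b*, from -0.0010 to 0.18 for *Cacna1c*, from -0.11 to 0.19 for *Cacna1d*, from -0.10 to 0.06 for *Cacna1e*, from -0.02 to 0.26 for *Cacna1g*, from -0.19 to 0.09 for *Cacna1h* and from -0.29 to 0.01 for *Cacna1i*. The cause of these changes was not tested.

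Accessory subunit genes were called higher 0 times by edgeR, but 1 with library size only, 2 with neuron scaling, 1 with no filter, 1 with the length and GC correction and 1 at an adjusted p under 0.1, and 0 to 2 when each library was left out. They were called lower 0 times, but 1 in DESeq2, 1 with no filter, 2 with the length and GC correction and 1 at an adjusted p under 0.1, and 0 to 3 when each library was left out (3 without WT replicate 2). Over all genes, 1233 were called higher, against 3556 with neuron scaling, 1903 with the length and GC correction, 724 at an adjusted p under 0.01, and 900 to 2578 when each library was left out. Called lower were 96, against 244 in DESeq2, 36 with neuron scaling, 573 with no filter, 52 with at least 10 counts in every library, 788 with the length and GC correction, 318 and 16 at adjusted p under 0.1 and 0.01, and 51 to 2180 when each library was left out. The share of calls that were higher was 92.8%, against 82.4% in DESeq2, 75.8% with no filter, 70.7% with the length and GC correction, 66.5% without WT replicate 1 and 48.2% without WT replicate 2. Without a WT library, the spread rests on the KO pair, which varied less. Library size alone moved the median of all genes by 0.11.

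The labels give WT and KO the same replicate numbers, with nothing that ties them to a shared litter or day, and the deviations of same-numbered libraries correlated at 0.137 over genes. With the replicate block 0 of 8 members were called, against 13.3% of all genes, 1 accessory subunit gene was lower (*Cacna2d1*, adjusted p 0.00957), 5 of the 38 other calcium genes were higher and 5 lower, *Rem2* among them (adjusted p 0.0161), *Dnmt1* was lower (adjusted p 0.0149), and 1625 genes were higher and 619 lower (72.4% higher). The replicate block with the length and GC correction gave 0 members, 2 accessory subunit genes lower, and 1958 genes higher and 927 lower (67.9% higher).

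Class shares shifted with the length used. From raw counts, P/Q-, N- and R-type genes took 47.5% in WT and 47.9% in KO, L-type genes 15.9% and 16.4%, and T-type genes 36.6% and 35.7%. With the longest transcript, L-type genes took 13.2% in WT and 13.5% in KO, and T-type genes 42.2% in KO.

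Depth did not limit detection of the members, the lowest of which had 159 counts, while *Cacna1f*, *Cacna1s*, *Cacng1* and *Cacng6* did not pass the filter of the edgeR fit. The standard error of *Cacna1a* was 0.14 with all libraries, 0.15 without either WT library and 0.29 without either KO library.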
